A study of Caenorhabditis elegans with 2 samples.

Results

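The regions described here lie at promoters of protein-coding genes on the 5 autosomes of Caenorhabditis elegans. They come from a relaxed MES-4 peak list that holds peaks and background together, once the sites at small RNA genes are set aside. A region of the pooled peak list counted as a promoter region when 3 conditions held. It lay on an autosome, its summit was more than 220 bp from every tRNA, snRNA and snoRNA gene, and the summit fell between 500 bp before and 100 bp after the 5' end that the annotation gives for some protein-coding gene. Of 12028 regions in the list, 12008 were nuclear, 9805 were autosomal and away from small RNA genes, and 1662 were promoter regions. They reached 1811 of 17242 autosomal protein-coding genes. The choice used position alone and no signal value.

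The animals were hermaphrodite young adults of strain RW10325, taken 63 h after starved L1 larvae were released into growth. The line stably carries MES-4 with a GFP-FLAG tag at its C terminus, and chromatin was precipitated from whole animals with an antibody to GFP, then sequenced (ChIP-seq). There was 1 group with 2 biological replicates, and every animal carried the tagged protein. Whole animals mix germline and somatic chromatin, so the tissue in which a region was recovered cannot be told apart. An untagged line and the control libraries were not analysed here.

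MES-4 is a histone H3 methyltransferase of the NSD family, supplied by the mother and needed for survival of the germline in the offspring. It is known for associating with autosomal genes that were expressed in the parental germline, largely over their bodies, and for sparing most of the X chromosome. A promoter in this species is short and often shared by genes that are transcribed away from each other. Many annotated 5' ends are sites where a leader RNA was spliced on, so that transcription itself starts further upstream.

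The peak lists are lists of regions with a signal value that the authors' caller assigned. Values from different lists are not on the same scale, so each region was given its rank by signal among the nuclear regions of its list, where rank 1 is the highest. The pooled list and the list of each replicate are relaxed lists that hold peaks and background together, and the reproducible list is the part that the authors kept by the irreproducible discovery rate. All 440 nuclear regions of the reproducible list are the highest 440 of the pooled list. Read depth is unknown from these files.

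Few promoter regions stood out from the background of the relaxed list. Their pooled signal ran from 28.3 to 193 with a median of 36.3 and quartiles of 31.8 and 44.6. Of the 1662 promoter regions, 143 (8.6%) had a deposited q value under 0.05, against 7.38% of all nuclear regions and 299 of 8143 (3.67%) of the other autosomal regions away from small RNA genes. The reproducible list held 48 of them (2.89%, exact 95% interval 2.14 to 3.81), against 3.66% of all nuclear regions. Intervals on shares here cover counting error only.

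The sequences below show the ground under the strongest of these sites. They reach 60 bases to either side of the summit and are given on the strand of the named gene, for the 8 highest ranked promoter regions on chromosomes II to V whose window touches no annotated exon. Bases were read from the RefSeq genome of the WBcel235 assembly, which is ce11. Capitals mark any match, on either strand, to the 8 motifs or the 5 words of 7 letters that are described further on.
rpl-3: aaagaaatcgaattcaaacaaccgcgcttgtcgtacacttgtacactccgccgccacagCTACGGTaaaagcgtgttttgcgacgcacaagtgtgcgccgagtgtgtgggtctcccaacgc
Y17G9B.5: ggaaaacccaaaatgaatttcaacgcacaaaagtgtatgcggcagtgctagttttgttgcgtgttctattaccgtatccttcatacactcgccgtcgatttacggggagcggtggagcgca
cdc-48.1: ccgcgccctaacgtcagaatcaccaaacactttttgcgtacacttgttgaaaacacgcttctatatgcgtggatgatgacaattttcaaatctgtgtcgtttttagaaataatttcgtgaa
rpl-35: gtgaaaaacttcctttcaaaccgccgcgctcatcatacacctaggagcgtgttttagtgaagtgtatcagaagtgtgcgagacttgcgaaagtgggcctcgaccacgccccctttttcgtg
rpl-15: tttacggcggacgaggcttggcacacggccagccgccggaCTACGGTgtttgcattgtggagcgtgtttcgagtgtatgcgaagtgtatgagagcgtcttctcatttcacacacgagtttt
drr-2: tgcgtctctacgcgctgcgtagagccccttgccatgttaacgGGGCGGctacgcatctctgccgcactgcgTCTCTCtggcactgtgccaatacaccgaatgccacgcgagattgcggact
Y22D7AL.10: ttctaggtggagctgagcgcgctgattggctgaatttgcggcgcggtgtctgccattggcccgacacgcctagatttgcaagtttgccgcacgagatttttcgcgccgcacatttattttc
C34C12.8: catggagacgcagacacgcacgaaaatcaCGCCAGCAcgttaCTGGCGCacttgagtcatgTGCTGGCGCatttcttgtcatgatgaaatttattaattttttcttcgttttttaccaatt

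The rpl-3 window is chrIII:3867507-3867627 on the plus strand and that of rpl-35 is chrIII:7854627-7854747 on the plus strand. The window of Y17G9B.5 is chrIV:4750006-4750126 on the plus strand, and that of rpl-15 is chrIV:654867-654987 on the minus strand. The cdc-48.1 window is chrII:10563483-10563603 and the drr-2 window chrIII:13643666-13643786, both on the minus strand. The window of Y22D7AL.10 is chrIII:1619066-1619186 on the minus strand, and that of C34C12.8 is chrIII:3460231-3460351 on the plus strand. The GC content of these windows ran from 38.8% at cdc-48.1 to 61.2% at drr-2, and the rpl-3 and rpl-15 windows both had 53.7%.

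The highest promoter region lay at -287 bp from the 5' end of rpl-3, which encodes a protein of the large ribosomal subunit, with a pooled signal of 192.73 and rank 15. It ranked 38 in replicate 1 with a signal of 82.14 and 9 in replicate 2 with a signal of 111.49. The next lay between 2 genes transcribed away from each other, at -174 bp from Y17G9B.5 and -288 bp from rpl-20, which encodes another large subunit protein. It had a pooled signal of 161.98 and rank 37, and ranked 61 in replicate 1 and 30 in replicate 2. Both sites were therefore among the upper 100 nuclear peaks of each replicate.

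The third in order lay at -136 bp from cdc-48.1, which encodes an ATPase that pulls ubiquitinated proteins out of complexes. It had rank 44 with a signal of 154.25, and ranks of 67 in replicate 1 and 40 in replicate 2. The region of rank 80, with a signal of 130.30, lay between the histone genes his-68 and his-67 and ranked 179 in replicate 1 and 56 in replicate 2. The regions at rpl-35 (rank 95, signal 125.93) and at rpl-15 (rank 103, signal 123.70) differed more between replicates. The rpl-35 site ranked 474 in replicate 1 and 48 in replicate 2, and the rpl-15 site ranked 47 in replicate 1 and 255 in replicate 2.

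The region of rank 108, with a signal of 122.30, lay between drr-2 and set-16. The set-16 gene encodes a histone methyltransferase of the MLL family. The region ranked 260 in replicate 1 and 63 in replicate 2. The promoter of wwp-1, a HECT-type ubiquitin ligase, had rank 151 with ranks of 95 in replicate 1 and 282 in replicate 2. The promoter of rpac-19, a subunit shared by RNA polymerases I and III, had rank 193 with ranks of 160 and 382. The widest gap among the 20 highest was at kel-3, named for its kelch repeats, with rank 60 in replicate 1 and 959 in replicate 2 and 185 in the pooled list.

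**Figure D1:**
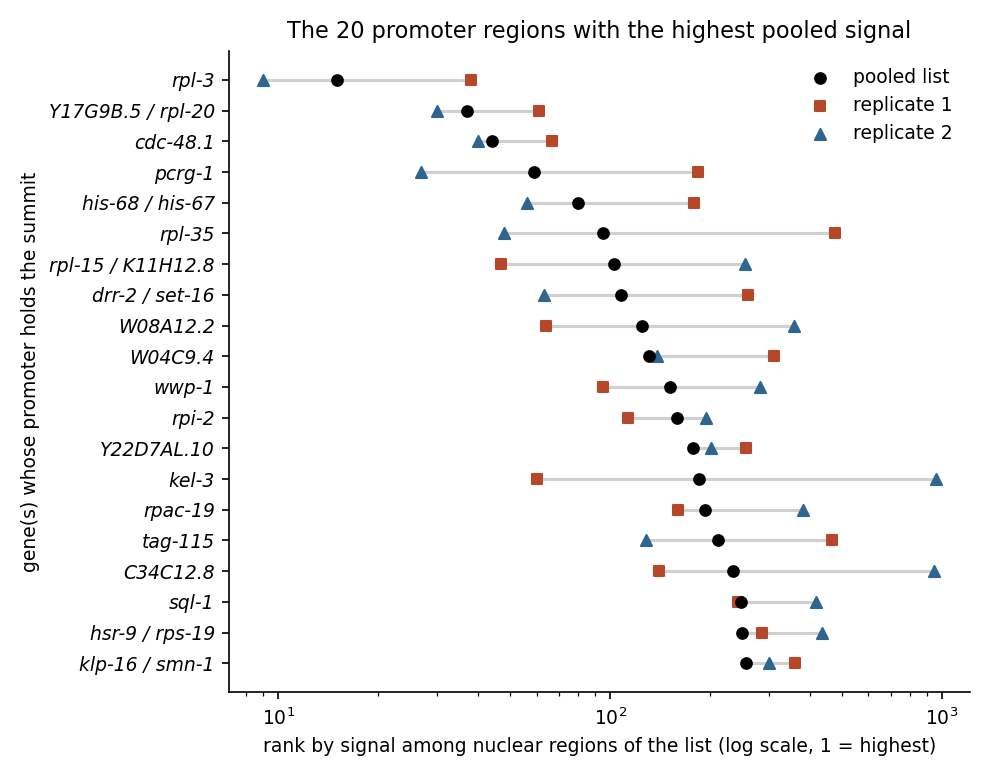
Rank by signal (log scale, 1 is the highest) of the 20 promoter regions with the highest pooled signal, in the pooled list (black circles), replicate 1 (squares) and replicate 2 (triangles), labelled by the genes whose promoter holds the summit. The sites at rpl-3, Y17G9B.5 / rpl-20 and cdc-48.1 lie within rank 67 in both replicates, while kel-3 lies at rank 60 in replicate 1 and 959 in replicate 2.

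The other named sites among the 20 highest were at W08A12.2 (rank 125), W04C9.4 (rank 131), rpi-2 (rank 159), Y22D7AL.10 (rank 178), tag-115 (rank 211) and C34C12.8 (signal 98.12). They also included sql-1 (rank 248), a golgin of the Golgi apparatus. The site of rank 249 lay between hsr-9, the relative of human 53BP1 in the DNA damage response, and rps-19, for a protein of the small ribosomal subunit. The site of rank 257 lay between klp-16, a minus-end directed kinesin, and smn-1, the worm survival motor neuron gene.

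Noncoding genes other than tRNA, snRNA and snoRNA genes lay at a few of the reproducible sites. Both regions at pcrg-1, at ranks 59 and 322, had their summits within 74 bp of mrpr-1, the gene for the RNA of RNase MRP, and the summit of rank 59 lay inside it. The same pair of replicate peaks, of ranks 184 and 27, overlapped both. The wwp-1 summit lay inside the noncoding gene Y65B4BR.10, and the klp-16 and smn-1 summit lay 6 bp from the miRNA gene cel-mir-4932. In all, 4 of 48 reproducible promoter regions had a gene annotated as ncRNA within 220 bp and 1 had a miRNA gene. Over all 1662, the ncRNA count was 96 (5.78%), against 294 of 8143 other regions (3.61%).

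The 48 reproducible regions reached 57 genes, which is 0.331% of autosomal protein-coding genes. Beyond the 20 highest they held genes of protein folding, such as cct-8 of the cytosolic chaperonin (rank 278) and dnj-9, a DnaJ-type cochaperone (rank 281). They held genes of translation and secretion, with eif-3.C, a subunit of the initiation factor that loads the small ribosomal subunit, at rank 370, sec-61.G of the translocon at rank 377 and rpl-21 at rank 432. Mitochondrial genes were cox-5A of cytochrome c oxidase (rank 348), coa-7, named for assembly of that enzyme (rank 349), and pdhk-2, a kinase of pyruvate dehydrogenase (rank 371). Genes of germline and chromosome biology were cpg-1, an eggshell proteoglycan (rank 306), tebp-2, a telomere-binding protein (rank 402), and knl-3 of the kinetochore (rank 410). Genes of wider use were egl-30, the Gq alpha subunit that drives neurotransmission (rank 362), and ints-8 of the Integrator complex (rank 393). The genes named here beyond the 20 highest were chosen and grouped after their values were seen. The summit of rank 278 lay closer to Y55F3AR.2, at -176 bp, than to cct-8, at -445 bp. That of rank 432 lay closer to C14B9.10, at -293 bp, than to rpl-21, at -332 bp.

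Over the 48 regions, ranks ran from 38 to 2352 in replicate 1 with a median of 281 and from 9 to 1320 in replicate 2 with a median of 342. The replicate 1 rank was the higher placed at 25 of them and the replicate 2 rank at 23. All 48 overlapped a peak in both replicates, as did all 93 other autosomal regions away from small RNA genes within rank 440. The reproducible list was derived from the replicate and pooled lists, so this overlap is not independent of the choice.

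Relative to other autosomal sites, promoter regions lay higher in the list. The median rank was 5275.5 for promoter regions, with quartiles of 2443.8 and 8396.8, and 6369 for the 8143 other autosomal regions away from small RNA genes. The reproducible list held 2.89% of the promoter regions and 93 of the 8143 others (1.14%, interval 0.923 to 1.40), and these intervals did not overlap. Among the upper 1000 nuclear regions were 167 promoter regions (10%), against 8.33% of all nuclear regions and 363 of the 8143 others (4.46%). Among the upper 220 were 16 promoter regions (0.963%), against 1.83% of all nuclear regions and 32 of the 8143 others (0.393%). Regions at small RNA genes filled much of the upper list: 290 of the 731 such regions were in the reproducible list.

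The classes of other autosomal sites differed among themselves. Where promoter regions had 2.89% in the reproducible list, summits in 3' UTRs had 14 of 509 (2.75%, interval 1.51 to 4.57), and these intervals overlapped. Summits between genes had 32 of 1669 (1.92%, interval 1.32 to 2.70). Introns had 24 of 2566 (0.935%, interval 0.600 to 1.39) and coding exons 21 of 3296 (0.637%, interval 0.395 to 0.972), both below the interval of the promoter regions. The 103 summits in other exons had 2. By median rank the order was another, with 5275.5 for promoter regions, 5324 for 3' UTRs, 5646 for other exons, 6059.5 for coding exons, 6702.5 for introns and 6740 between genes.

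The share of promoter regions among autosomal sites away from small RNA genes fell along the ranking. It was 48 of 141 (34%, interval 26.3 to 42.5) within rank 440 and 30.6% of 389 (interval 26 to 35.4) from there to rank 1000. It was 178 of 843 (21.1%) up to rank 2000, 317 of 1678 (18.9%) up to rank 4000 and 543 of 3369 (16.1%) up to rank 8000. In the lowest stretch it was 457 of 3385 (13.5%, interval 12.4 to 14.7). Promoter windows covered 11.7% of the autosomal bases away from small RNA genes, which lies just under the interval of the lowest stretch.

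**Figure D2:**
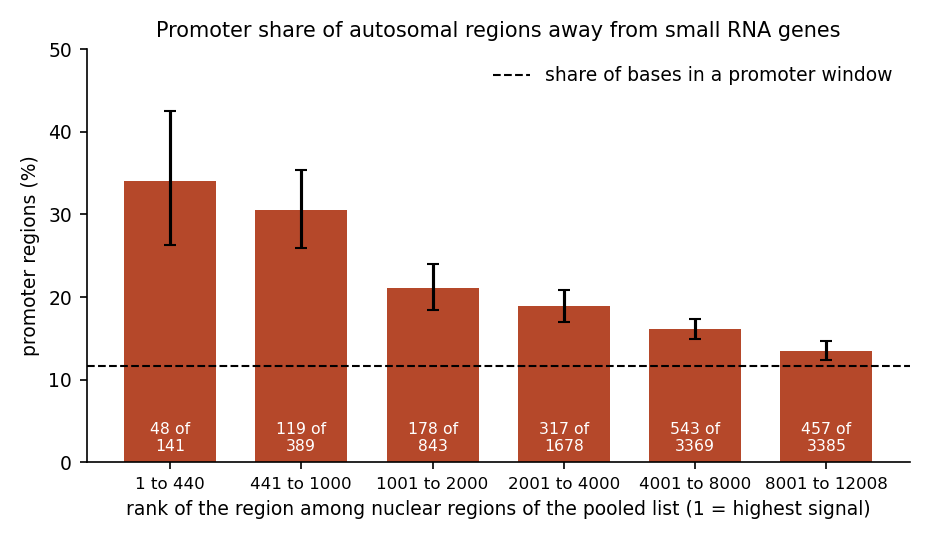
Bars give promoter regions as a percentage of autosomal regions away from small RNA genes, in stretches of the pooled list ordered by rank, with exact 95% intervals and the counts inside each bar. The dashed line is the 11.7% of bases that lie in promoter windows. The bars step down from 34% to 13.5% and each interval lies above the line.

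The summit lay upstream of the annotated 5' end in 1356 of the 1662 promoter regions (81.6%). The median position was -155 bp, with quartiles of -301 and -29 bp. In the reproducible list 44 of 48 summits were upstream, with a median of -170 bp and quartiles of -245.2 and -60.8 bp. The window itself reaches further upstream than downstream, so these medians depend on its shape. Densities per megabase of available sequence avoid this limit. For regions within rank 1000, the density by nearest 5' end was highest from -200 to -150 bp, at 32.7 summits per Mb, and stayed between 15.2 and 32.7 from -300 to 150 bp. It was 4.47 at -500 to -450 bp and 8.24 at 150 to 200 bp, and was again 14.2 at 250 to 300 bp. These bins hold few summits, with 26 in the highest, 3 at -500 to -450 bp and 12 at 250 to 300 bp. For regions beyond rank 1000 the highest bin was the last before the 5' end, with 206 per Mb, and there were 124 per Mb at -500 to -450 bp and 192 per Mb at 150 to 200 bp.

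**Figure D3:**
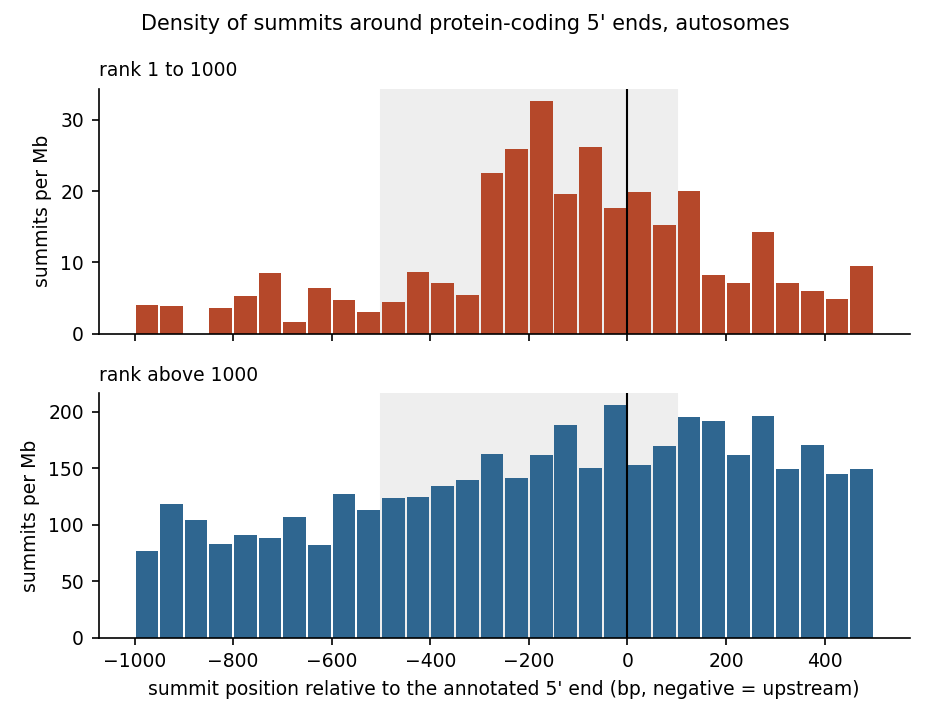
Summits per megabase of available sequence in bins of 50 bp around the nearest annotated 5' end of an autosomal protein-coding gene, for regions within rank 1000 (above) and beyond it (below), with the promoter window shaded. The upper panel peaks at 32.7 per Mb upstream of the 5' end, and the lower panel varies between 77 and 206 per Mb, highest in the bin just before the 5' end.

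Of the 1662 summits, 1055 (63.5%) lay in no protein-coding gene, 319 (19.2%) lay in the body of another protein-coding gene, and 291 (17.5%) lay in a coding exon. In the reproducible list 38 of 48 (79.2%, interval 65 to 89.5) lay in no protein-coding gene and 2 lay in a coding exon. The regions are not independent, since 171 of them (10.3%) overlapped another promoter region and 93 of the 1811 genes had 2 or more.

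Some summits lay within the promoter windows of a pair of genes that are transcribed away from each other, here called divergent. There were 225 such regions (13.5%, interval 11.9 to 15.3), while 6.51% of the bases in promoter windows had this arrangement. Their median rank was 4208, against 5371 for the other 1437 promoter regions, and 9 (4.00%, interval 1.85 to 7.46) were in the reproducible list, against 39 (2.71%, interval 1.94 to 3.69). These intervals overlapped. By rank, the divergent share was 9 of 48 within rank 440 and 27.7% (33 regions) from there to rank 1000. It lay between 11% and 14.6% in the lower stretches.

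The genes reached by promoter regions also had close neighbours on either strand more often than other genes. Of the 1811 genes, 567 (31.3%, interval 29.2 to 33.5) had the end of a gene on the same strand within 500 bp upstream, against 2780 of the 15431 other autosomal protein-coding genes (18%). Close neighbours on the opposite strand were counted for 547 (30.2%, interval 28.1 to 32.4), against 2831 of the others (18.3%). A 5' UTR was annotated for 1557 (86%), against 11677 of the others (75.7%). A symbol of the form used for studied genes, rather than a clone-based name, was held by 1169 (64.5%), against 8383 of the others (54.3%).

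The gene share differed between chromosomes. Promoter regions reached 388 of 2640 protein-coding genes on III (14.7%, interval 13.4 to 16.1) and 401 of 2878 on I (13.9%, interval 12.7 to 15.3). They reached 332 of 3281 on IV (10.1%) and 336 of 3449 on II (9.74%). Chromosome V was lowest with 354 of 4994 (7.09%, interval 6.39 to 7.84), and it held 3 of the 48 reproducible regions, against 16 on III. On the X chromosome, treated in the same way, 155 of 2731 genes (5.68%, interval 4.84 to 6.61) had a promoter region, against 10.5% on the autosomes. Of the 152 regions on X, 2 (1.32%, interval 0.160 to 4.67) were in the reproducible list, an interval that overlaps that of the autosomes. Within the autosomes, the central part of each chromosome (the middle of 3 equal lengths) had 750 of 6570 genes reached (11.4%), against 1061 of 10672 in the arms (9.94%). By chromosome the gap was widest on V, with 8.84% in the centre and 6.1% in the arms, and it was 14.2% and 13.8% on I and 9.99% and 9.6% on II.

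Support from the replicates followed the rank. Of the 1662 promoter regions, 867 (52.2%, interval 49.7 to 54.6) overlapped a relaxed peak of both replicates by at least 1 bp, against 46.7% of all nuclear regions and 3532 of the 8143 others (43.4%). A further 737 (44.3%) overlapped a peak of a single replicate and 58 (3.49%) overlapped neither. Within a stretch of the ranking the shares were close. From rank 1000 to 2000 it was 86.5% of promoter regions and 88.0% of other regions, and in the lowest stretch 20.1% and 17.6%.

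Across the 867 promoter regions with a peak in both replicates, ranks correlated with Spearman's rho of 0.31, and log2 signals with Pearson's r of 0.45. For the 3532 other regions the values were 0.25 and 0.40. These are correlations across regions of the same pair of libraries, given as a description. Within narrower ranges of pooled rank the values were lower, with 0.10 and 0.18 for the 48 reproducible promoter regions and 0.05 and 0.10 for the 704 beyond rank 1000. These ranges are cut on pooled rank, and the pooled list is built from both replicates, so the values do not compare agreement at high and low ranks. The replicate summit lay a median of 23 bp from the pooled summit in replicate 1 and 26 bp in replicate 2. For the reproducible regions these distances were 5.5 and 13.5 bp.

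**Figure D4:**
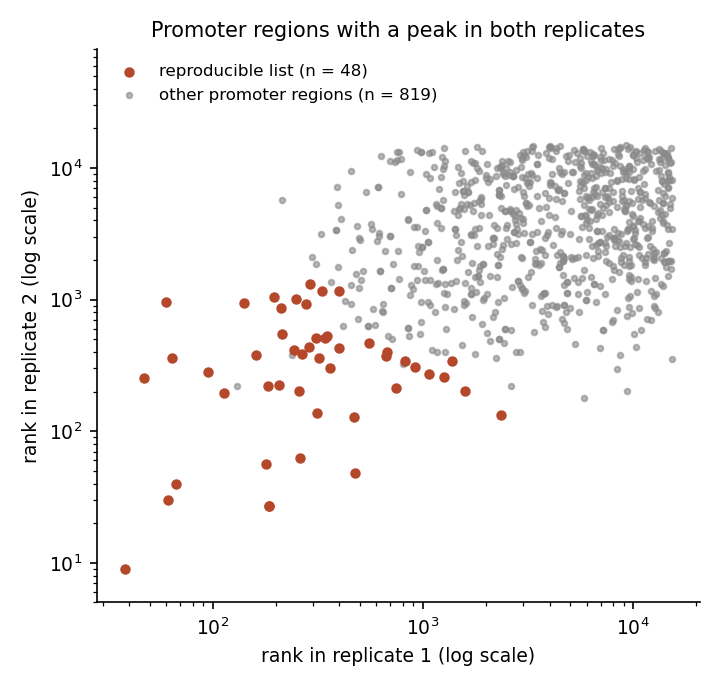
Rank in replicate 1 (horizontal, log scale) against rank in replicate 2 (vertical, log scale) for the 867 promoter regions with a peak in both. The 48 regions of the reproducible list lie in the lower left, from rank 38 in replicate 1 and rank 9 in replicate 2, and the others reach to the upper right.

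Cytosolic ribosomal protein genes had the largest share of the 25 lists in the pooled list and in replicate 1, and the respiratory chain list had it in replicate 2. Each list is set here beside the 10.5% of all autosomal protein-coding genes that had a promoter region, and the lists were not tested. Of 79 cytosolic ribosomal protein genes, 35 (44.3%, interval 33.1 to 55.9) had a promoter region, and 6 (7.59%) had one in the reproducible list. For 10 of them (12.7%) the region was within rank 1000, against 1.22% of all autosomal genes. Of the 6 reproducible sites, those at rpl-20, rpl-15, rps-19 and rpl-21 lay between divergent genes, and those at rpl-3 and rpl-35 did not. The region between rpl-24.1 and rps-10 counted for both genes. Every gene in reach was counted, so the share does not assign a shared region to a single gene. The share was alike in both replicates taken alone, with 34 genes (43%) in the list of replicate 1 and 36 (45.6%) in that of replicate 2, where 11.5% and 12.4% of all autosomal genes were reached. Their summits lay far upstream, with a median of -301 bp and quartiles of -378.5 and -236 bp, against -175 bp for all 1811 genes reached. The share therefore depended on the window: from 250 bp upstream to 50 bp downstream, 9 of the 79 genes (11.4%) were reached, against 5.96% of all autosomal genes. In that window the respiratory chain list had the largest share (26%), and from 1000 bp upstream to 200 bp downstream chromatin regulators had it (53.2%), against 49.4% for ribosomal protein genes.

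Other lists of growth and energy genes were also above 10.5%. Of 30 genes for snoRNP proteins and ribosome assembly, 12 (40%) had a promoter region, led by nol-10 at rank 834 and nol-58, a core snoRNP protein, at rank 1549. Of 50 genes of the respiratory chain and ATP synthase, 19 (38.0%, interval 24.7 to 52.8) did, led by cox-5A at rank 348 and mev-1, a subunit of succinate dehydrogenase, at rank 971. The respiratory genes differed between replicates, with 15 (30%) in the list of replicate 1 and 27 (54%) in that of replicate 2. Of 22 RNA polymerase subunits, 8 (36.4%) had one, led by rpac-19 at rank 193 and rpb-11 of RNA polymerase II at rank 1271. Of 37 translation factors, 11 (29.7%) did, led by eif-3.C and eif-3.D, at ranks 370 and 1028, and eef-2, the factor that moves the ribosome along, at rank 1339 with no overlapping peak in replicate 1.

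The lists of protein turnover and folding had shares from 25.4% to 27.3%. Of 33 proteasome subunits, 9 (27.3%) had a promoter region, led by rpn-3 at rank 715, in a region shared with the chaperone gene hsp-110. Of 63 chaperone and heat shock genes, 16 (25.4%) did, with cct-8, dnj-9, dnj-19 at rank 453 and hsp-110 leading. Of 76 genes of the ubiquitin system, 20 (26.3%) did, led by ubl-5 at rank 1417 and otub-3 at rank 1800. Neither the proteasome list nor the ubiquitin list had a gene in the reproducible list, where 0.331% of all autosomal genes were. The chaperone list had 2 there (3.17%). The ubiquitin list does not hold wwp-1 or cdc-48.1. Of 66 genes of splicing and related RNA-binding proteins, 12 (18.2%, interval 9.76 to 29.6, which includes 10.5%) had a promoter region. They were led by rnp-1 at rank 890 and mog-4 at rank 998.

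The lists of chromatin, germ granule, meiotic, cell cycle and eggshell genes had shares from 19.1% to 29.8%. The sperm and histone lists, given below, had 6.6% and 13%. The germ granule, meiotic, cell cycle and sperm lists had no gene in the reproducible list, where 0.331% of all autosomal genes were. The chromatin and eggshell lists had 1 gene each there. Of 47 chromatin regulators, 14 (29.8%, interval 17.3 to 44.9) had a promoter region, led by set-16 and cec-6, a chromodomain protein, at rank 671, and lin-53, a histone-binding protein, at rank 1027. Of 60 genes of germ granules and of small RNA pathways in the germline, 15 (25%, interval 14.7 to 37.9) did. The highest were oma-2, an oocyte maturation factor, at rank 1019, cpb-3, of the CPEB family of RNA-binding proteins, at rank 1615, and ego-1, a germline RNA-directed RNA polymerase, at rank 1699. None of these 15 was within rank 1000, where 1.22% of all autosomal genes had a region. Of 57 genes of meiotic chromosomes and recombination, 13 (22.8%) did, led by him-14, a crossover factor, at rank 612 and coh-4, a meiotic cohesin, at rank 938. Of 68 cell cycle and replication genes, 13 (19.1%) did, led by pcn-1, the sliding clamp of DNA replication, at rank 960, which also lacked a peak in replicate 1. Of 28 eggshell and oocyte genes, 6 (21.4%, interval 8.30 to 41.0, which includes 10.5%) did. They were led by cpg-1 and by egg-1, an egg surface protein at rank 789.

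Most lists of differentiated somatic tissues, and that of sperm, had shares below 10.5%, though the intervals of the sperm, homeobox, neuronal and intestinal lists include it. Of 1276 chemoreceptor genes, 34 (2.66%, interval 1.85 to 3.70) had a promoter region, led by srh-16 at rank 638. Of 179 genes of cuticle collagens and hypodermis, 9 (5.03%, interval 2.32 to 9.33) did, none within rank 2000, and of 247 nuclear hormone receptors, 15 (6.07%, interval 3.44 to 9.82), led by nhr-47 at rank 453. The nhr-47 region is shared with dnj-19. Of 106 sperm genes, 7 (6.6%, interval 2.70 to 13.1) did, led by spe-48 at rank 449, and of 114 homeobox and other developmental factors, 8 (7.02%), led by elt-1 at rank 2299. Of 46 neuronal genes, 3 (6.52%) did, with egl-30 highest, and of 41 intestinal genes, 3 (7.32%, interval 1.54 to 19.9), with spl-1 highest at rank 3494.

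Muscle genes had a share above 10.5%. Of 33 muscle genes, 8 (24.2%, interval 11.1 to 42.3) had a promoter region, led by unc-60, a cofilin that severs actin, at rank 1105 and unc-54, the main body wall myosin, at rank 3204. Of 16 actins and tubulins, 5 (31.2%) did, led by tba-2 at rank 2657. Of 77 histone genes, 10 (13.0%, interval 6.41 to 22.6, which includes 10.5%) did, with his-68 and his-67 highest at rank 80 and his-60 and his-59 at rank 664. In the list of replicate 1 the histone share was 5 of 77 (6.49%), below the 11.5% of all autosomal genes there. Histone genes are near-identical copies in clusters, so reads could be split among them, and their values are uncertain. Of 17 V-ATPase subunits, 3 (17.6%, interval 3.8 to 43.4, which also includes 10.5%) did, with vha-11 highest at rank 5112. The gene mes-4 itself had no promoter region: the nearest summit lay 817 bp downstream of its 5' end, at rank 5356 with a signal of 36.16.

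**Figure D5:**
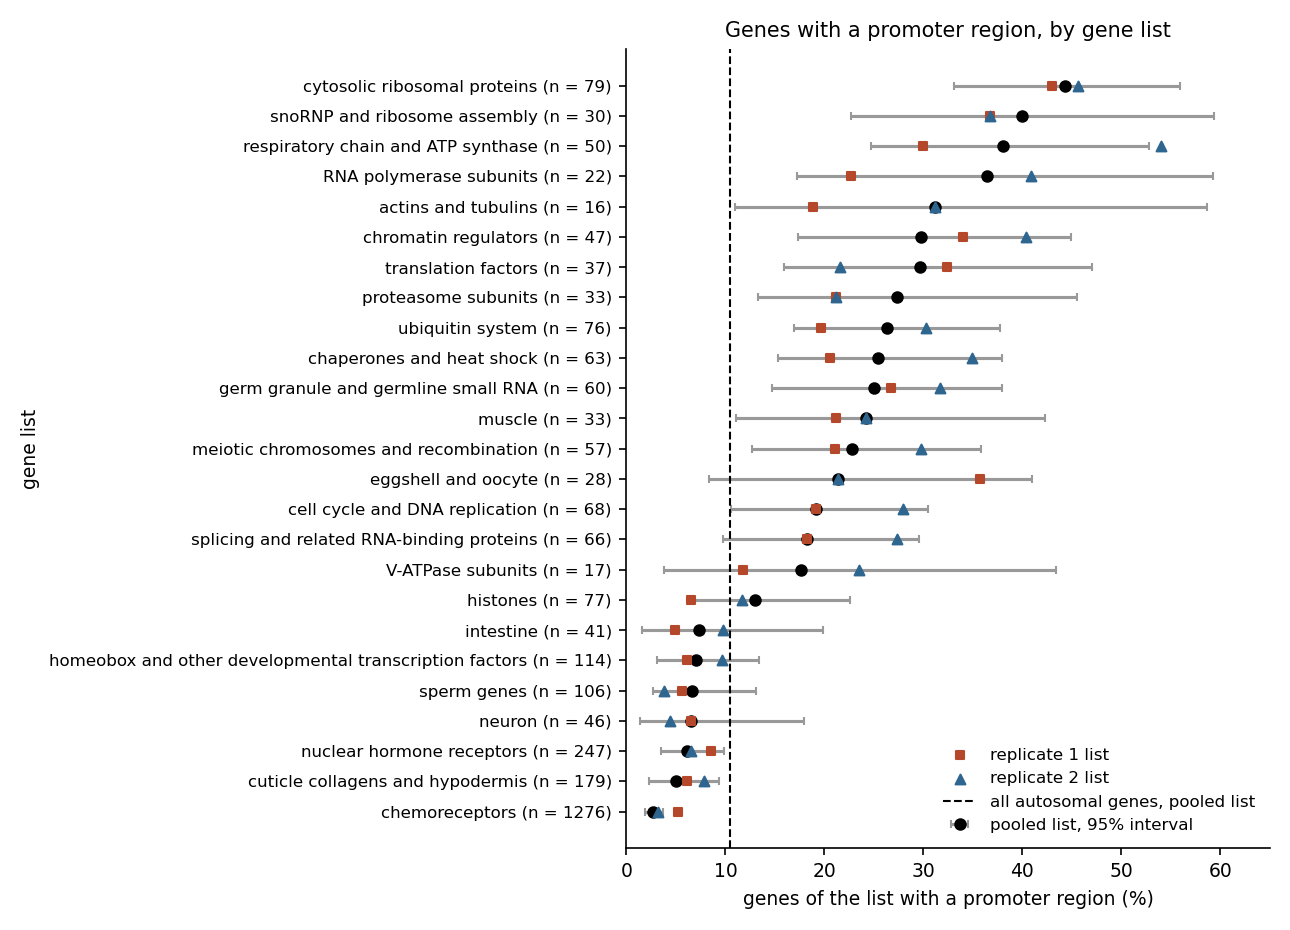
Share of the autosomal genes of each of 25 lists that had a promoter region, in the pooled list (black circles with exact 95% intervals), in the list of replicate 1 (squares) and in that of replicate 2 (triangles). The dashed line is the 10.5% of all autosomal protein-coding genes. In the pooled list ribosomal protein genes are highest at 44.3% and chemoreceptors lowest at 2.66%, and in replicate 2 the respiratory chain list is highest at 54%.

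Promoter regions had a higher median GC content than promoters in general and a lower one than other autosomal sites. Over windows reaching 100 bases to either side of the summit, the median GC content was 36.1% for promoter regions, with quartiles of 31.3% and 41.8%, and 41.3% for the 48 in the reproducible list. It was 39.3% for the 8143 other regions. Windows of the same length placed at -155 bp from all 17242 autosomal protein-coding 5' ends had a median of 33.3%, with quartiles of 29.9% and 37.8%.

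In the same windows, 8 motifs were searched on both strands. Shares are given for promoter regions, then for other regions and for all promoters. GAGAGA was in 266 of 1662 windows of promoter regions (16%), against 12.4% of other regions and 15.1% of all promoters. It was in 13 of the 48 reproducible windows (27.1%, interval 15.3 to 41.8) and 34 of the 167 within rank 1000 (20.4%, interval 14.5 to 27.3). The latter interval includes the 15.1% of all promoters. GGGCGG was in 7.58% of promoter regions, against 5.06% of other regions and 5.37% of all promoters. The E-box CACGTG was in 4.03%, against 4.41% of other regions and 3.97% of all promoters. The GATA-type word TGATAA was in 14.7%, against 13.9% and 21.9%, and TATAAA in 25%, against 19.7% and 25.8%. The run TTTTTTTT was in 20.6%, against 16.8% of other regions and 4348 of the 17242 promoters, and GAANNTTC in 12.6%, against 12.5% and 13.5%. GTTCGANNC, the internal promoter word of tRNA genes, was in 1.08% of promoter regions, against 2.55% of other regions and 0.969% of all promoters. In the 48 reproducible windows the shares were 12.5% for GGGCGG, 4.17% for CACGTG, 10.4% for TGATAA and 27.1% for TATAAA. They were 10.4% for TTTTTTTT, 16.7% for GAANNTTC and 2.08% for GTTCGANNC.

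Words of 7 letters were then counted in the same windows, a step chosen after the data were seen. The 110 words found in at least 7 of the 48 reproducible windows were ordered by the ratio of their share there to that in all promoters, with 1 percentage point added to each. The 5 highest were CTTGCGC (18.8%), CGCCAGC (16.7%), GCCAGCA (16.7%), CTGGCGC (16.7%) and ACCGTAG (14.6%), each counted with its reverse complement. CGCCAGC shares all but an end letter with GCCAGCA, and its reverse complement does so with CTGGCGC. Shares in the reproducible windows follow from the choice. A low share in all promoters was also part of the choice, so a comparison with all promoters is not independent of it. The windows of lower rank were not used directly to choose the words, although all promoters include those of their genes. Some reproducible regions, such as that at tag-115, overlap another promoter region, so the windows of lower rank may not be wholly separate. CTTGCGC was in 9 promoter regions beyond rank 440 and up to rank 1000 (7.56%, interval 3.52 to 13.9), 17 of 495 up to rank 4000 (3.43%) and 15 of 1000 beyond (1.5%), against 1.15% of other autosomal regions and 0.870% of all promoters. CGCCAGC was in 8 of those up to rank 1000 (6.72%), 30 of the 495 (6.06%) and 16 of the 1000 (1.6%), against 1.52% of other regions and 0.905% of all promoters. ACCGTAG was in 6 of those up to rank 1000 (5.04%), 10 of the 495 (2.02%) and 20 of the 1000 (2%), against 1.08% and 1.16%.

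Any of the 5 words was in 26 of those up to rank 1000 (21.8%, interval 14.8 to 30.4), 62 of the 495 (12.5%, interval 9.74 to 15.8) and 71 of the 1000 (7.1%). The share was 5.55% in other autosomal regions, 4.08% in all promoters and 5.6% in the 4321 promoters with a GC content between the quartiles of the reproducible windows, 36.8% and 44.4%. Both sets of promoters were part of the choice of words. In the reproducible regions away from promoters the share with any of the words was 7 of 93 (7.53%, interval 3.08 to 14.9). Among the printed windows, ACCGTAG lies in that of rpl-3 and of rpl-15, in both as its reverse complement CTACGGT, and the window of C34C12.8 holds all of the other words except CTTGCGC. Of the 8 printed windows, 5 hold none of these words.

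At the edges of the window, 57 regions had their summit in the last 20 bp inside the upstream limit, with a median signal of 34.1 and a range of 28.4 to 74.2. In the first 20 bp outside it there were 43, with a median of 32.4 and a range of 28.3 to 103. At the downstream limit, 76 regions lay in the last 20 bp inside, with a median of 35.4, and 68 in the first 20 bp outside, with a median of 37.0. The region nearest to a small RNA gene that was kept lay 282 bp away with a signal of 35.5, and the nearest one left out lay 194 bp away with a signal of 28.3. In all, 71 autosomal promoter summits were left out for lying at small RNA genes, with a median signal of 62.8, and 28 of them were in the reproducible list.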

How the data were processed

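Chromatin recovered with tagged MES-4 was sequenced in 2 biological replicates of 1 group. Per the deposited file descriptions, the authors called relaxed peak lists for each replicate and for the pooled alignments against a control, on ce11, and derived the reproducible list from these 3. For the aligner, the caller and its thresholds, nothing was given in the sources used here. The signal value of each peak is the authors' own, and its scale differs between lists, so ranks were used. The deposited −log10 q value ran from 0.0178 to 2.18 in the pooled list, and its p column was not filled. Read depth is unknown. Lists on ce10 were not used.

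Summits were placed on Ensembl release 115 genes (WBcel235) in Python 3.11.15. Tables were handled with pandas 2.3.3, intervals came from scipy 1.17.1, arrays from numpy 2.4.6 and plots from matplotlib 3.10.9. A region with several 5' ends in reach took its position from the nearest. In counts of genes, every gene in reach was counted as reached. Shares carry exact Clopper-Pearson 95% intervals. With 1 group no test between groups exists, and none was made. The rule was tested on simulated data. The pooled list was built from both replicates, so overlap with a replicate is not independent of it.

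The regions and gene lists were chosen with earlier results of these data known, and genes that matched a list by the letters of their symbol alone were dropped after values were seen. Named genes are those of the 20 regions with the highest signal, up to 4 genes of each list and mes-4. The other reproducible genes named were chosen after their values were seen.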

Additional observations from a re-analysis of the deposited data

How the results depend on the processing

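The window decides the number of promoter regions. With 250 bp upstream to 50 bp downstream there were 949 regions, with a median position of -94 bp and 8.85% between divergent genes. Of them 4% were in the reproducible list, and the median GC content was 35.3%. Of 2857 listed genes, 162 were reached, against 305 as reported. Over all autosomal genes the shares were 5.96% in this window and 10.5% as reported. With 1000 bp to 200 bp there were 2840 regions, at a median of -238 bp, with 49.5% in both replicates, a median rank of 5590.5 and a GC content of 37.3%. They reached 490 of the listed genes and 17.5% of all autosomal genes. The ribosomal list depended on the window, with 9 of 79 genes (11.4%) reached in the narrow one, against 5.96% of all autosomal genes, and 39 (49.4%) in the wide one, against 17.5%. Nuclear hormone receptors gave 3 of 247 (1.21%) in the narrow one. With any annotated transcript start, 11.5% lay between divergent genes. A stricter limit at the upper 220 regions held 0.963% of promoter regions and a looser one at the upper 1000 held 10%. Requiring at least 50% of the region to be covered in both replicates left 44.6%, and summits within 100 bp left 32.5%. These stricter overlap rules were applied to promoter regions alone, so no like share of other regions can be set beside them. In the reproducible list alone, 16 listed genes were reached, and 0.331% of all autosomal genes. In each of 6 other settings of the window, the small RNA distance or the 5' end, promoter regions kept a larger reproducible share than other autosomal regions, from 2.25% against 1.11% to 4% against 1.16%.

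With the list of a single replicate, leaving out the other, the rule gave 1899 to 1996 regions and a median position of -156 bp in both cases. Between divergent genes lay 10.7% to 13.1% of them. These regions reached 321 to 357 of the listed genes, where 11.5% and 12.4% of all autosomal genes were reached. Of the 1662 regions of the pooled list, 72.9% overlapped a peak of replicate 1 and 75.8% a peak of replicate 2. Over all nuclear regions these shares were 72.7% and 69.8%, and over the other autosomal regions away from small RNA genes 71.1% and 67.9%. The replicate 1 share was thus close to that of all nuclear regions. Lists that moved by more than 1.5 times were chemoreceptors (67 without replicate 2), RNA polymerase subunits (5), histones (5), eggshell and oocyte genes (10) and actins and tubulins (3) without replicate 2, and sperm genes (4) and cuticle genes (14) without replicate 1. The causes were not tested. No paired analysis was possible because there was 1 group. With 2 replicates and unknown depth, no error can be given for the signal of a single region.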
